A study of Homo sapiens with 4 samples.

Results

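The genes described here are those of the cytosolic ribosomal proteins, the proteins that together with ribosomal RNA form the 60S and 40S subunits of the ribosome. They were chosen by symbol. A member is a protein-coding gene outside chromosome Y whose symbol is RPL or RPS, a number and at most 1 letter A, X or Y, or is RPLP0, RPLP1, RPLP2 or RPSA. There are 77 members among the 60708 genes of the count table, of which 46 encode proteins of the large subunit (RPL and RPLP genes) and 31 encode proteins of the small subunit (RPS genes and RPSA).

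The 4 libraries are TT-seq libraries of HEK293, a human embryonic kidney cell line. In TT-seq, cells take up 4-thiouridine into new RNA for a brief period (20 min here), the RNA is fragmented, and the labeled fragments are pulled down and sequenced. Most reads thus stem from recent transcription and cover introns as well as exons. All cells carried an RPB1 degron, which lets auxin trigger the destruction of the endogenous largest subunit of RNA polymerase II. The 2 groups differ in the RPB1 plasmid that was transfected. In 52X WT the plasmid held a CTD (the repeated tail of RPB1) of 52 wild-type repeats, and in 52X T4A every repeat carried T4A, the change of threonine 4 to alanine. Auxin was added 48 h after transfection and kept for 48 h in both groups, and there were 2 libraries of each. The transfection was transient, so cells that took up no plasmid are part of each culture, and no library without auxin is part of the comparison. The labels do not say whether the replicates came from separate cultures, so a p-value here measures only the spread between these libraries, which may be technical.

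Ribosomal protein genes are among the most transcribed genes of a growing cell, because every ribosome needs a copy of nearly every one of these proteins. Their mRNAs begin with a C and a run of pyrimidines, the TOP motif, through which the mTOR pathway controls their translation. Many of them also carry small nucleolar RNA (snoRNA) genes in their introns.

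The start of transcription shows what these genes share. Windows of 30 bases around the annotated start are printed for 13 members that the results below turn on, with 15 bases before the start and 15 from the first transcribed base onward, in GRCh38.p14 coordinates from RefSeq. Capitals mark the unbroken run of C and T that covers the first transcribed base; in a window without capitals that base is A or G.
RPS12 (chr6:132814554-132814583, + strand): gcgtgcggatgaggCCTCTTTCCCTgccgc
RPL24 (chr3:101686704-101686733, - strand): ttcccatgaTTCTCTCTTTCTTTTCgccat
RPS3 (chr11:75399503-75399532, + strand): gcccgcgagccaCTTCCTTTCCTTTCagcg
RPS19 (chr19:41860240-41860269, + strand): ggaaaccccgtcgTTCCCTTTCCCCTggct
RPL41 (chr12:56116618-56116647, + strand): cggaacttcgCCTTTCTCTCggccttagcg
RPL7A (chr9:133348203-133348232, + strand): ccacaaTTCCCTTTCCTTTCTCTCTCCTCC
RPLP0 (chr12:120201097-120201126, - strand): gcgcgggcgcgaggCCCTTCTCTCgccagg
RPLP1 (chr15:69452803-69452832, + strand): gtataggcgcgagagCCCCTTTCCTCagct
RPS21 (chr20:62387088-62387117, + strand): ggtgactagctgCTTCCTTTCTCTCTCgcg
RPL36 (chr19:5690280-5690309, + strand): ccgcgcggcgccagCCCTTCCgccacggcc
RPS15 (chr19:1438381-1438410, + strand): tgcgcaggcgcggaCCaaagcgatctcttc
RPL11 (chr1:23691764-23691793, + strand): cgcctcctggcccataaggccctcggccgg
RPS27A (chr2:55231888-55231917, + strand): taaggagtgacacacaagacccagactctt

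RefSeq promoter windows, 250 bases before to 50 bases after the start, were at hand for 62 of the 77 members. The first transcribed base was C in 46 of them, or 74.2%, against 11.4% of 22132 windows of protein-coding genes. A run of at least 5 pyrimidines covered the start in 44 members, or 71.0%, against 8.05% of the protein-coding windows. The letters CTTT on the sense strand lay within 10 bases of the start in 37 members, or 59.7%, against 9.04%. In RPS15, RPL11 and RPS27A the annotated start of this window is not followed by such a run. 3 more letter strings were searched over the whole window on both strands. CCGGAAG was found in 33.9% of member windows and 12.8% of protein-coding windows, AAGATGGC in 9.68% and 3.54%, and GGGCGG in 54.8% and 56.3%. TATAAA, searched on the sense strand in the 60 bases before the start, was found in 2 members, or 3.23%, against 3.37%. RPL and RPS windows held CTTT in 55.3% and 66.7%. These matches describe letters and do not show binding of any factor.

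What the count table can show of each gene depends on its neighbors. The listed length equals the listed span for all 60708 genes, so reads in introns and exons were counted together. Each of the 9293 genes that lie wholly under other genes of the same strand is listed at 0 in all 4 libraries, so reads over more than 1 gene of a strand were not counted. For each member the countable part was therefore computed, which is the part of its span that no other listed gene of the same strand covers. It was at least 90% of the span in 67 members.

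For this reason 5 members were not measured. RPS10, mutated in Diamond-Blackfan anemia, lies wholly under the readthrough gene RPS10-NUDT3 and was listed at 0 in all 4 libraries. RPL26 had 26 countable bases and RPL17, under the readthrough gene RPL17-C18orf32, had 29, and both were at 0. RPL36A, under RPL36A-HNRNPH2, had 187 countable bases and 0, 0, 0 and 2 counts in 52X WT replicates 1 and 2 and 52X T4A replicates 1 and 2. These values say nothing on the transcription of the 5 genes. In 5 further members the countable part was below 90%, namely RPL22 (43.9%), RPL36 (53.2%), RPS15A (74.5%), RPS2 (77.8%) and RPL27A (89.0%). Within 28 members 58 snoRNA genes lie on the same strand, up to 4 in a single gene (RPL7A, RPL23A, RPL4 and RPL13A among them), and reads over them were left out.

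The other 72 members, 43 RPL and 29 RPS genes, passed the filter on low counts and were tested. Their lowest count was 856, 986, 575 and 727 in 52X WT replicates 1 and 2 and 52X T4A replicates 1 and 2, and their highest was 23514, 24363, 22190 and 22020, both in the same order. Members together held 1.01% and 0.932% of the counts in the 52X WT libraries and 1.04% and 1.13% in the 52X T4A libraries. The library totals ran from 33188536 to 45605027 counts, and 23321 genes were tested. Log2 CPM, the counts scaled to library depth, correlated at 0.991 between the 52X WT libraries and at 0.979 between the 52X T4A libraries, and 52X T4A replicate 1 had the lowest correlations with the 52X WT libraries (0.975 and 0.974). POLR2A, the gene of RPB1, had 377312 and 384353 counts in 52X WT and 251502 and 279478 in 52X T4A, where reads of the plasmid and of the endogenous gene cannot be told apart. Of 5 genes used as HEK293 markers, EYA1 and NEFL had at least 54.1 normalized CPM in every library, PAX2 had 1.81 to 2.78, and INA and NEFM were at or below 0.153. The 5 markers of other cells, ALB, PTPRC, CDH5, HBB and COL1A1, summed to 3.83 and 3.27 normalized CPM in 52X WT and to 4.53 and 4.63 in 52X T4A, with HBB at 0 counts in all libraries but 52X T4A replicate 1, and their part in the results was not tested.

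Per length, the members stood far above the typical gene. The density, in normalized CPM per kb of countable length in the mean 52X WT library, had a median of 23.1 over the 72 members, against 0.741 over the 15329 protein-coding genes tested. It was above the 95th percentile of those genes in 66 members. RPL and RPS genes had nearly the same median density, 23.0 and 23.2. The gene lists closest in function had lower densities. The median was 10.1 for 14 tested genes in a list of translation factors and other proteins with TOP mRNAs. It was 2.91 for 69 tested genes of the mitochondrial ribosome. Without division by length the order was reversed for the first of these lists. Median normalized CPM in the mean 52X WT library was 206 there, 126 over the members and 28.5 for the mitochondrial ribosome. The highest densities were those of RPL41 (69.8), which encodes the smallest ribosomal protein, RPL7A (65.6), RPS2 (65.2), a protein at the mRNA entry channel, RPS19 (45.8), RPS15 (43.0) and RPS16 (42.2). The lowest were those of RPL22 (2.07), RPL37A (2.56), RPL30 (3.54), RPL10 (4.16), RPL28 (5.22) and RPS9 (5.64). RPL37A, RPL30, RPL10 and RPS9 have listed spans of 80356, 21619, 19214 and 48195 bases. Over the 72 members density was lower in genes of longer span (Pearson r = −0.55, Spearman rho = −0.67 across genes, which share libraries and are not independent replicates). Density is divided by countable length, so part of this relation is built in. Normalized CPM in the mean 52X WT library rose with countable length (r = 0.35, rho = 0.53). The number of annotated pseudogenes that carry a member's symbol ran from 1 (RPLP2 and RPS9) to 133 (RPL21) and had almost no relation to density (r = 0.04, rho = −0.04). Counting used uniquely aligned reads, so levels of members with near-identical copies remain uncertain.

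**Figure D1:**
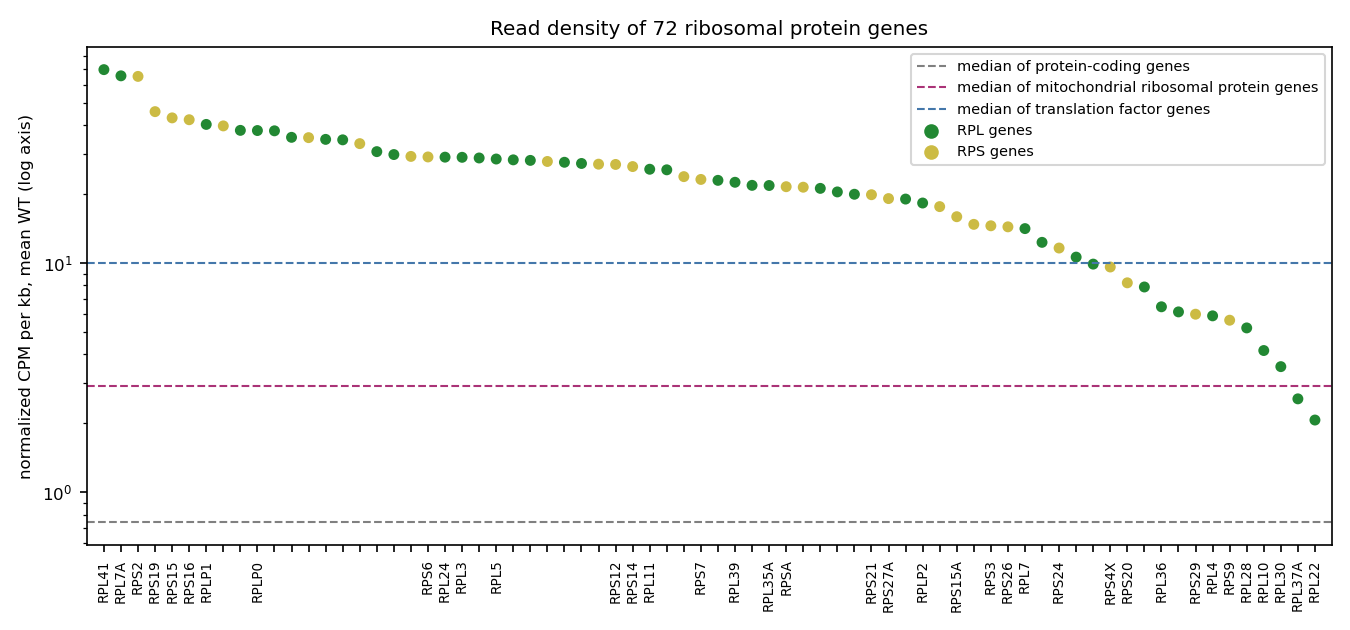
Density of the 72 tested members in the mean 52X WT library, in normalized CPM per kb of countable length (log axis), from highest to lowest and labelled where named in the text, with dashed lines at the medians of 3 other gene sets. All members lie above the median of protein-coding genes (0.741), and RPL and RPS genes are mixed along the order.

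Between 52X T4A and 52X WT no single member passed the threshold of more than 1.5-fold difference at an adjusted p-value under 0.05 (quasi-likelihood test of edgeR, Benjamini-Hochberg adjusted over every tested gene). The share of all tested genes past this threshold was 0.00429% higher and 0% lower, so only 1 gene was called among 23321. The smallest adjusted p-value of a member was 0.218 (RPS20), and no member reached a 1.5-fold difference. At an unadjusted p-value below 0.05, 14 members were higher in 52X T4A and 0 were lower, against a background of 7.45% higher and 8.02% lower over all genes. That is 19.4% of the members. The count was 5 without 52X T4A replicate 1, which is 6.94% of the members against 6.25% of all genes, and 5 and 7 without 52X WT replicates 1 and 2 (6.94% and 9.72%, against 3.77% and 3% of all genes). With DESeq2 on the same genes 6 members, or 8.33%, had an adjusted p-value below 0.05, against 3.91% of all genes, and none of the 6 reached 1.5-fold.

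Most members differed slightly in the same direction. In 43 of the 72 members, or 59.7%, both 52X T4A libraries lay above both 52X WT libraries, against 24.8% of all tested genes, and in 2 members (RPL22 and RPL19) both lay below, against 24.7%. The log2 fold change was positive in 56 members. Its median was 0.10 over the members and −0.00076 over all genes, and it ran from −0.43 (RPS15) to 0.32 (RPS20). Relative to the mean of the 52X WT libraries, the median member was at 0.04 and −0.04 (log2) in 52X WT replicates 1 and 2, at 0.09 in 52X T4A replicate 1 and at 0.13 in 52X T4A replicate 2. The gap between the 52X WT replicates is thus close to the gap between the groups. Over the protein-coding genes alone the median log2 fold change was −0.04. Counts are relative to the whole library, and in a bulk library a lower share of transfected cells and less RNA made per cell cannot be told apart.

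**Figure D2:**
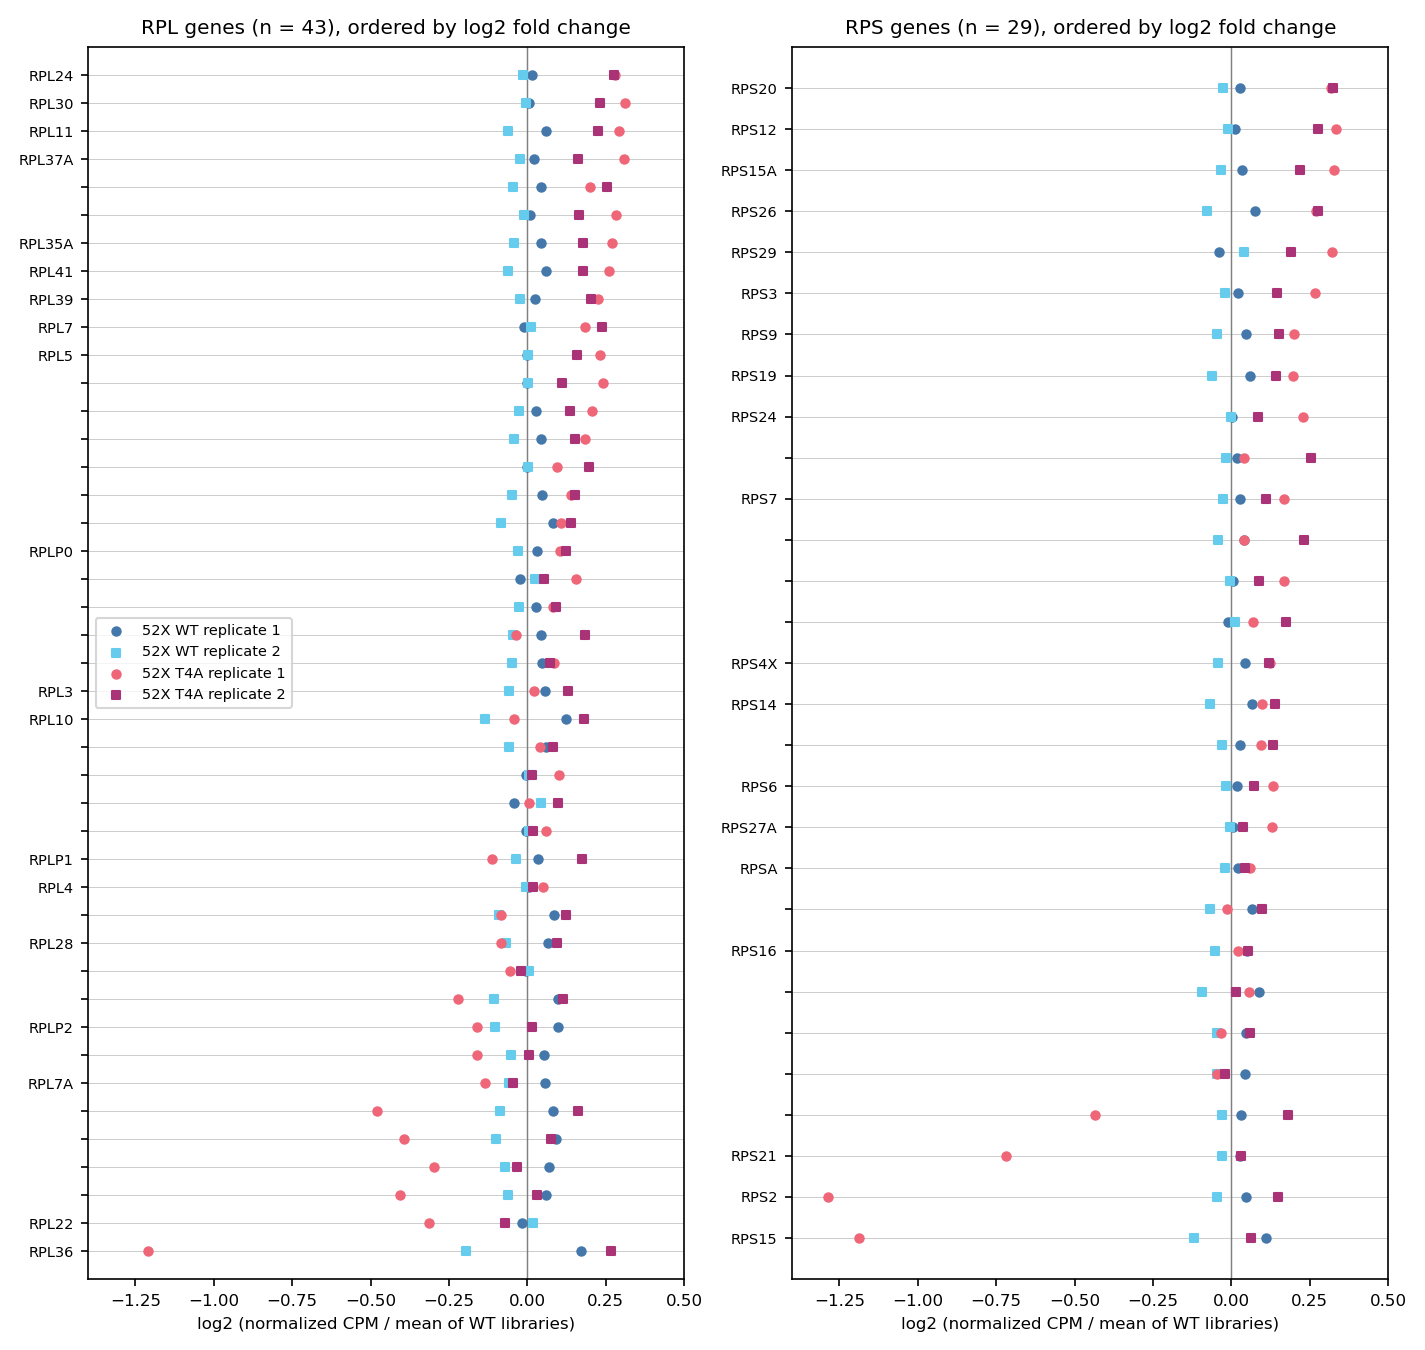
Normalized CPM of each tested member in each of the 4 libraries, as log2 of the ratio to the mean of both 52X WT libraries, with RPL genes on the left and RPS genes on the right, ordered by log2 fold change and labelled where named in the text. Most members have both 52X T4A points to the right of both 52X WT points, while for the lowest genes of each panel 52X T4A replicate 1 alone lies far to the left.

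RPL and RPS genes lay close together in this comparison. The median log2 fold change was 0.08 over 43 RPL genes and 0.12 over 29 RPS genes, a difference of −0.04. Both 52X T4A libraries lay above both 52X WT libraries in 24 RPL genes (55.8%) and in 19 RPS genes (65.5%), against 24.8% of all genes. At an unadjusted p-value below 0.05, 9 RPL genes (20.9%) and 5 RPS genes (17.2%) were higher, against 7.45% of all genes. The RPL median less the RPS median, each relative to the mean of the 52X WT libraries, was 0.01 and −0.01 in 52X WT and −0.02 and −0.0042 in 52X T4A, so each library placed both families at nearly the same level. Without 52X T4A replicate 1 the RPL and RPS medians were 0.14 and 0.14, and the difference was −0.0039.

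The largest upward differences among small subunit genes were those of RPS20 and RPS12. RPS20, whose protein lies in the head of the 40S subunit, had 60.1 and 57.9 normalized CPM in 52X WT and 73.6 and 73.8 in 52X T4A. Its groups did not overlap, and the log2 fold change was 0.32 with a standard error of 0.09 (edgeR, adjusted p = 0.218). RPS12, a protein of the beak of the 40S subunit, had 73.7 and 72.7 normalized CPM in 52X WT and 92.2 and 88.6 in 52X T4A. The log2 fold change was 0.31 with a standard error of 0.08 (edgeR, adjusted p = 0.222), and the run of C and T at its start is printed above. For both genes the replicates of a group lay closer together than the groups did.

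RPS15A, RPS26, RPS29 and RPS3 followed. RPS15A had 110.4 and 105 normalized CPM in 52X WT and 135 and 126 in 52X T4A. RPS26, mutated in Diamond-Blackfan anemia, had 50.7 and 45.7 in 52X WT and 58.0 and 58.4 in 52X T4A. RPS29 had 161 and 170.2 in 52X WT and 207 and 189 in 52X T4A. The log2 fold changes of these 3 genes were 0.27, 0.27 and 0.26, with adjusted p-values from edgeR of 0.247, 0.265 and 0.271. None of the 3 overlapped between the groups, but they were named for their small p-values. Both 52X T4A libraries lay above both 52X WT libraries in 59.7% of the members and 24.8% of all tested genes. RPS3, a protein of the mRNA entry channel with a further role in DNA repair, had 332 and 322 normalized CPM in 52X WT and 393 and 362 in 52X T4A. Its log2 fold change was 0.21 (edgeR, adjusted p = 0.365), and here the 52X T4A libraries were farther apart than the 52X WT libraries.

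On the large subunit the smallest p-values belonged to RPL24, RPL30, RPL11, RPL39, RPL35A and RPL7. RPL24, a protein at the bridge to the 40S subunit, had 165 and 161 normalized CPM in 52X WT and 198 and 198 in 52X T4A. The 52X T4A libraries were almost identical for this gene, and the log2 fold change was 0.28 with a standard error of 0.09 (edgeR, adjusted p = 0.240). RPL30 had 76.3 and 75.7 in 52X WT and 94.3 and 89.2 in 52X T4A, a log2 fold change of 0.27 (edgeR, adjusted p = 0.245). RPL39, a protein of the exit tunnel, had 114 and 111 in 52X WT and 132 and 129.5 in 52X T4A. RPL7 had 77.9 and 79.0 in 52X WT and 89.1 and 92.5 in 52X T4A. RPL35A, a gene of Diamond-Blackfan anemia, had 144 and 136 in 52X WT and 169 and 158 in 52X T4A. For these last 3 genes the log2 fold changes were 0.21, 0.21 and 0.22, and the adjusted p-values from edgeR were 0.292 or slightly above. Their groups did not overlap, but they too were named for their small p-values. The share with both 52X T4A libraries above both 52X WT libraries was 59.7% of the members and 24.8% of all tested genes.

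RPL5 and RPL11 form a particle with 5S ribosomal RNA that can bind and inhibit MDM2, and so links ribosome assembly to p53. RPL11 had 136 and 125 normalized CPM in 52X WT and 160.2 and 153 in 52X T4A, with a log2 fold change of 0.26 with a standard error of 0.09 (edgeR, adjusted p = 0.257). RPL5 had 275 and 276 in 52X WT and 323 and 307 in 52X T4A, with a log2 fold change of 0.19 with a standard error of 0.10 (edgeR, adjusted p = 0.365). Both genes were higher in each 52X T4A library than in each 52X WT library, as were 59.7% of the members and 24.8% of all tested genes. Both belong to the members with the lower GC content, of which 83.3% were.

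RPS19, the gene most often mutated in Diamond-Blackfan anemia, had the most counts of all members. It lies on chromosome 19 from 41860255 to 41872925 (GRCh38) and had 601 and 553 normalized CPM in 52X WT and 661 and 637 in 52X T4A. Its log2 fold change was 0.17 with a standard error of 0.11 (edgeR, adjusted p = 0.491), and its 52X WT libraries were farther apart than its 52X T4A libraries. Of 9 listed genes of this anemia 7 were measured. In all of these 7 (RPS19, RPL5, RPL11, RPS26, RPS24, RPS7 and RPL35A) both 52X T4A libraries lay above both 52X WT libraries. The share was 59.7% of the members and 24.8% of all tested genes. The 7 genes had a median log2 fold change of 0.19 and a median GC content of 46.3%. Among the 36 members with the lower GC content the share was 83.3%, and the part of GC content was not tested. RPS24 had 268 and 268 normalized CPM in 52X WT and 314 and 284 in 52X T4A, and RPS7 had 134 and 129 against 147 and 141.

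The P stalk recruits elongation factors to the ribosome and is built by RPLP0 with RPLP1 and RPLP2. RPLP0 had 175 and 168 normalized CPM in 52X WT and 184 and 187 in 52X T4A. RPLP1 had 139.9 and 133 in 52X WT and 126 and 154 in 52X T4A. RPLP2 had 54.4 and 47.3 in 52X WT and 45.5 and 51.4 in 52X T4A. Of the 3 genes the groups were thus apart for RPLP0 alone, and the log2 fold changes were 0.11, 0.04 and −0.07 (edgeR, adjusted p = 0.552, 0.889 and 0.782). RPLP1 and RPLP2 were lowest in 52X T4A replicate 1.

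Further genes of known role on the large subunit were RPL3, RPL10, RPL4 and RPL22. RPL3, close to the peptidyl transferase center, had 218 and 202 normalized CPM in 52X WT and 213 and 229 in 52X T4A, so its groups overlapped. RPL10, which joins the 60S subunit late in its assembly, had 86.4 and 72.2 in 52X WT and 77.0 and 89.9 in 52X T4A and overlapped as well. RPL4, with a long loop in the exit tunnel, had 155 and 154 in 52X WT and 159.8 and 156 in 52X T4A, a log2 fold change of 0.03. RPL22 was one of the 2 genes below both 52X WT libraries, with 21.9 and 22.4 in 52X WT and 17.8 and 21.0 in 52X T4A, and 52X T4A replicate 1 was the lower of its pair. RPL19, the other such gene, had 96.3 and 96.8 in 52X WT and 93.0 and 95.1 in 52X T4A, a log2 fold change of −0.04.

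On the small subunit, RPS6, the classic substrate of S6 kinase, had 133 and 129.6 normalized CPM in 52X WT and 144 and 138 in 52X T4A. RPS27A, which is made as a fusion with ubiquitin, had 75.7 and 75.4 in 52X WT and 82.7 and 77.6 in 52X T4A. RPSA, also known as the laminin receptor, had 121 and 117 in 52X WT and 124 and 123 in 52X T4A. These 3 genes were higher in both 52X T4A libraries by small amounts, with log2 fold changes of 0.10, 0.09 and 0.05. Such a separation was seen in 59.7% of the members and 24.8% of all tested genes. RPS4X, the X-linked copy of its protein, had 214 and 201 in 52X WT and 226 and 225 in 52X T4A, and RPS14, lost in the 5q deletion of myelodysplastic syndrome, had 196 and 179 in 52X WT and 200.5 and 206 in 52X T4A.

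The lowest log2 fold changes belonged to genes that were low in 52X T4A replicate 1 only. RPS2 had 146 and 137 normalized CPM in 52X WT, 58.0 in 52X T4A replicate 1 and 156 in 52X T4A replicate 2. RPS15 had 99.2 and 84.6 in 52X WT and 40.4 and 96.1 in 52X T4A. RPL36 had 65.5 and 50.8 in 52X WT and 25.1 and 69.9 in 52X T4A. In each case 52X T4A replicate 1 was below every other library by a wide margin, while 52X T4A replicate 2 lay within or above the 52X WT libraries. RPS21 had 28.7 and 27.6 in 52X WT and 17.1 and 28.8 in 52X T4A. The fitted log2 fold changes were −0.40 for RPS2, −0.43 for RPS15, −0.29 for RPL36 and −0.30 for RPS21, with adjusted p-values from edgeR between 0.519 and 0.727. Without 52X T4A replicate 1 they were 0.16, 0.07, 0.28 and 0.04.

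The members furthest below the 52X WT mean in 52X T4A replicate 1 were GC-rich. Over the 72 members GC content ran from 40.4% to 62.7%, and 4 members were more than 1.5-fold below the 52X WT mean in this library (RPS2, RPS15, RPL36 and RPS21), all with at least 57.6% GC. Across members the log2 ratio to the 52X WT mean had a correlation with GC content of r = −0.75 (rho = −0.70) in 52X T4A replicate 1 and of r = −0.25 (rho = −0.22) in 52X T4A replicate 2. Across all genes tested the values were r = −0.43 and r = 0.06. These correlations are across genes of the same library and are descriptions. Of the 36 members with the lower GC content, 30 (83.3%) had both 52X T4A libraries above both 52X WT libraries. Of the 36 with the higher GC content 13 (36.1%) had, and of all tested genes 24.8% had. The 36 GC-rich members were 23 RPL and 13 RPS genes. In 52X T4A replicate 2 alone 61 of the 72 members lay above both 52X WT libraries, against 43 in 52X T4A replicate 1. A single library clears both 52X WT libraries more easily than a pair does. With the other 52X T4A library left out of the fit, the share of all genes was 38% for replicate 2 and 41.1% for replicate 1. GC content is a property of the gene, and its part in these differences was not tested. In an alternative chosen after the data were seen, the trend of each library on GC content was removed. The log2 fold changes of RPS2, RPS15, RPL36 and RPS21 were then −0.29, −0.09, −0.13 and −0.05. The member median less that of all genes was 0.08. With this trend removed 13 members (18.1%, against 10.4% of all genes) had an adjusted p-value below 0.05 in edgeR, all below 1.5-fold.

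**Figure D3:**
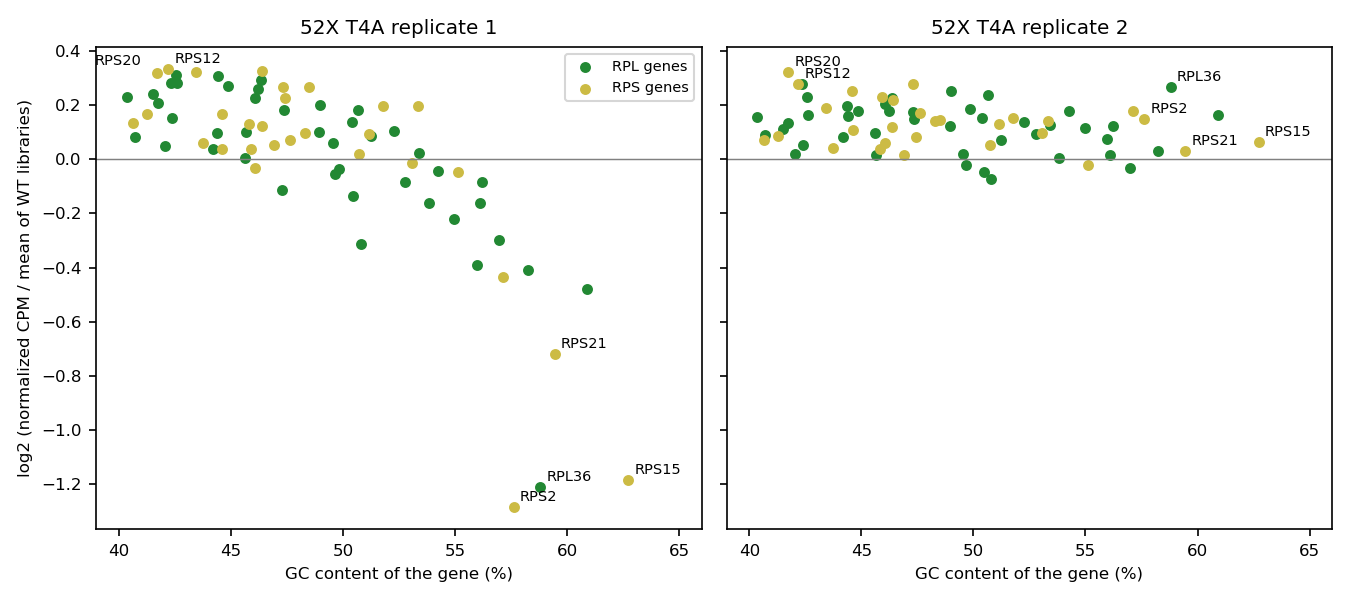
Log2 ratio of each member's normalized CPM to the mean of the 52X WT libraries against the GC content of the gene in percent, for 52X T4A replicate 1 (left) and replicate 2 (right). The GC-rich genes RPS2, RPS15, RPL36 and RPS21 fall far below 0 on the left and lie above 0 on the right.

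Members with and without the features of the start differed little in their medians. The 43 tested members with a C at the start had a median log2 fold change of 0.12 and a median density of 27.0 CPM per kb, and the 15 tested members without it had 0.08 and 20.0. For members with and without CTTT near the start the median log2 fold changes were 0.12 and 0.08. The 27 tested members with snoRNA genes inside had a median of 0.08, and the 45 without had 0.11. No test was made of these splits, and each covers only members that were tested.

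Some genes of the ribosome lie outside the rule by their symbols. FAU encodes the ribosomal protein RPS30 as a fusion with a ubiquitin-like protein, and RACK1 is a scaffold on the 40S subunit. FAU had 23.9 and 21.6 normalized CPM in 52X WT and 26.4 and 23.8 in 52X T4A, so its groups overlapped. The log2 fold changes of FAU and RACK1 were 0.14 and 0.06. Of 8 paralogs 7 were tested, RPL10L being listed at 0. At an unadjusted p-value below 0.05 in edgeR 3 (42.9%) were higher, against 7.45% of all tested genes. The median log2 fold change of these 7 was 0.23, from −0.20 (RPL39L) to 0.41 (RPL3L), against 0.10 for the members. RPS27L, which p53 can induce, had 47.0 and 48.6 normalized CPM in 52X WT and 57.6 and 60.1 in 52X T4A, a log2 fold change of 0.30 (edgeR, adjusted p = 0.237). RPL22L1, the paralog of RPL22, had 62.3 and 61.9 in 52X WT and 77.1 and 74.9 in 52X T4A, a log2 fold change of 0.29 (edgeR, adjusted p = 0.232), whereas RPL22 itself was at −0.19. RPL3L, the paralog of RPL3 known from heart and skeletal muscle, had 7.72 and 8.69 in 52X WT and 10.5 and 11.3 in 52X T4A, a log2 fold change of 0.41 (edgeR, adjusted p = 0.292). RPL39L lay the other way, with 30.6 and 33.8 in 52X WT and 28.8 and 27.0 in 52X T4A.

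The lists nearest in function had lower medians. Here apart upward means both 52X T4A libraries above both 52X WT libraries, and apart downward means both below. Over all tested genes 24.8% were apart upward and 24.7% downward, and over protein-coding genes 21.3% and 29.2%. The translation factor list, which also holds NPM1, TPT1, NACA and BTF3, had 14 tested genes. Their median log2 fold change was −0.01, with 5 genes (35.7%) apart upward and 2 (14.3%) apart downward. Among them EIF3F, a subunit of initiation factor 3, was at 0.28 and EEF2, the factor that moves the ribosome along the mRNA, at −0.30 (edgeR, adjusted p = 0.241 and 0.536). EEF2 had 325 and 291 normalized CPM in 52X WT and 178 and 321 in 52X T4A, so that it too was low in 52X T4A replicate 1 only. The 69 tested genes of the mitochondrial ribosome had a median of −0.09, with 9 (13.0%) apart upward and 21 (30.4%) downward. The list of regulators of TOP mRNAs held 8 genes, among them MYC, which encodes a transcription factor. The median of this list was −0.16, from −0.36 (RPS6KB2) to −0.02 (EIF4EBP2), with 5 (62.5%) apart downward and 0 upward. MTOR, the kinase at the head of this pathway, had 302 and 294 normalized CPM in 52X WT and 258 and 242 in 52X T4A, and LARP1, which binds the TOP motif, had 385 and 374 in 52X WT and 352 and 319.6 in 52X T4A. Of 1569 ribosomal protein pseudogenes 56 were tested, with a median of 0.05 and 10 (17.9%) apart in each direction. The 9 chaperones of single ribosomal proteins had a median of −0.02, with 2 (22.2%) apart in each direction. No gene of these lists passed the threshold, and the differences between the lists were not tested.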

How the data were processed

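For 4 TT-seq libraries the authors deposited raw counts per gene, obtained with featureCounts from uniquely aligned reads. The submitters' processing notes name STAR 2.7.11b, cutadapt 4.6 and GRCh38; the featureCounts version, its settings and the annotation release are not given in the sources used here, and the protocol describes a strand-specific library. Symbols, gene types and GC content were taken from GENCODE v44 mapped to GRCh37 by stable gene identifier (58742 genes matched), and coordinates are those of the table. Counts were normalized by TMM, filtered by filterByExpr and tested in edgeR 4.0.16 under R 4.3.3 (quasi-likelihood, Benjamini-Hochberg over 23321 genes, all 4 libraries, group as the only term). Normalized CPM are counts divided by the TMM-scaled library size, in the usual CPM unit. Standard errors were derived from the F statistic. The fit was checked on simulated counts. Alternatives were DESeq2 1.42.0, library size, upper quartile, other filters, protein-coding genes only, the replicate number as a block and each library left out. Members were chosen by symbol, and the genes printed are those with the smallest p-values, lowest fold changes, highest or lowest densities, no measurement, or a role on a fixed list; letters in promoters come from RefSeq. The removal of each library's GC trend was an alternative chosen after seeing the data. Members and lists were chosen with earlier results of these data known. A few genes that the rule names are not reported here.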

Additional observations from a re-analysis of the deposited data

How the results depend on the processing

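In edgeR, 1 of all tested genes passed the threshold, against 99 with DESeq2 (42 higher, 57 lower), 65 with no filter on low counts and 338 with the GC trend removed. Leaving out a library gave 0 to 2500 genes, with 2500 without 52X T4A replicate 2, 195 without 52X T4A replicate 1, 3 without 52X WT replicate 1 and 0 without 52X WT replicate 2. No member passed in any setting except without 52X T4A replicate 2, where 4 did, so that range is 0 to 4. A lone library of a group was assumed to vary like the other group. The 14 members higher at an unadjusted p-value below 0.05 (19.4%, against 7.45% of all genes) became 31 by library size alone (43.1% against 10.5%), 31 with upper quartile scaling (43.1% against 11.6%), where the median of all genes was 0.05 and 0.08, and 30 with the GC trend removed (41.7% against 11.5%). They were 5 to 13 when a library was left out. Without 52X T4A replicate 1 the 5 were 6.94% against 6.25% of all genes, and without 52X T4A replicate 2 the 13 higher (18.1% against 12%) stood beside 10 lower (13.9% against 14.2%). The median of the members less that of all genes, 0.10, was 0.0237 with no filter and 0.07 to 0.13 when a library was left out. The count of members with both 52X T4A libraries above both 52X WT libraries, 43, ran from 36 without 52X WT replicate 2 to 62 without 52X T4A replicate 1. With 3 libraries groups separate more easily, and the share of all genes was then 34.4% and 38%, against 24.8% with 4, so these counts are not to be read against 43. The RPL median less the RPS median was −0.0029 with the GC trend removed and −0.0411 to −0.0039 when a library was left out. Without 52X T4A replicate 1 the log2 fold changes of RPL36 (0.28), RPS15 (0.0723), RPS2 (0.16) and RPS21 (0.0376) turned positive, and without 52X T4A replicate 2 those of RPL36, RPS15, RPS2 and RPS21 were −1.22, −1.20, −1.30 and −0.73. The cause was not tested.

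The replicate numbers did not pair the libraries, since deviations of same-numbered libraries correlated at 0.00498. With the replicate block 433 genes (177 higher, 256 lower) passed, 2 members were higher at an unadjusted p-value below 0.05 (2.78%, against 6.81% of all genes) and 4 were lower (5.56% against 7.32%), and RPS15 (−0.55) and RPS2 (−0.56) had adjusted p-values of 0.0178 and 0.0230 in edgeR. With 2 libraries a group, small differences are not resolved, and 5 members could not be measured.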
